A study of Mus musculus with 9 samples.

Results

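Matrix metalloproteinases and their natural inhibitors were followed as 10 genes in fibrotic mouse liver: the tissue inhibitors Timp1, Timp2 and Timp3, the matrix metalloproteinases Mmp2, Mmp9, Mmp13, Mmp14 and Mmp19, and the aggrecanase-type proteases Adamts1 and Adamts4. They were taken by symbol from a table of 24532 genes, and all 10 were among the 14731 genes with enough reads to test. Their levels were compared across 9 whole-liver libraries in 3 groups of 3. All mice were wild-type C57BL/6 and received thioacetamide (TAA), a liver toxin that causes fibrosis, by intraperitoneal injection at escalating dose for 10 weeks. The controls were given normal saline (called TAA, replicates 12, 13 and 14). Recombinant human cytoglobin (rhCYGB), a globin protein, was injected into the tail vein at 2 mg/kg. It was given over the final 2 weeks of TAA in replicates 17, 18 and 19 and over the final 5 weeks in replicates 23, 27 and 28. Livers were taken 2 days after the last dose, and livers without TAA were not analysed here. The age of the mice is not given in the sources used here, nor is it said that each library is its own animal, so the p-values rest on library-to-library spread, which may be technical.

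In fibrotic liver, activated stellate cells deposit fibrillar collagen and also make proteases and protease inhibitors. Matrix metalloproteinases are secreted or membrane-bound zinc enzymes that are made as inactive precursors and cleave collagens and other matrix proteins once activated. TIMPs bind the active enzymes and block them, so the net activity depends on both families as well as on activation, which transcript levels do not show. ADAMTS proteases are related secreted zinc enzymes that cleave proteoglycans such as versican and aggrecan, and TIMP3 is their main TIMP inhibitor.

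Promoter sequences from RefSeq (build GRCm38.p6, the series build mm10) were matched by symbol for 6 of the 10 genes: Timp1, Timp2, Timp3, Mmp13, Mmp14 and Adamts1. The 250 bases before the transcription start are printed for 4 of them. Timp3, Adamts1 and Mmp13 are shown because all 3 had their lowest mean level after 2 weeks of rhCYGB. Timp1 is shown because its 5-week libraries averaged the lowest, which also held for Mmp14 and, by a small margin, Timp2. Each reads 5′ to 3′ towards the gene. Capitals mark matches, on either strand, to an AP-1 site (TGANTCA), to a TATA box with the letters TATAAA, or to a GC box (GGGCGG).
Timp3, chr10:86300162-86300411, plus strand: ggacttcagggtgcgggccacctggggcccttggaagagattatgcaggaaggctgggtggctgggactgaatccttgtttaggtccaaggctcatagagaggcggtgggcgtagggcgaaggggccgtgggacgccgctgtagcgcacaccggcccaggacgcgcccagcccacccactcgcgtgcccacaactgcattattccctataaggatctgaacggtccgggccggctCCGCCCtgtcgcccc
Adamts1, chr16:85803114-85803363, minus strand: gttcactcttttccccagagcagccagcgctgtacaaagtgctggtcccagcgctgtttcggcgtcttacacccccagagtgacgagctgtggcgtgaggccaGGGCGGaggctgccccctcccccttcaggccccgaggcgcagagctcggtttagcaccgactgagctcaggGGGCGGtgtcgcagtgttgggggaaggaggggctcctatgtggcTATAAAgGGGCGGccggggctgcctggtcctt
Mmp13, chr9:7272264-7272513, plus strand: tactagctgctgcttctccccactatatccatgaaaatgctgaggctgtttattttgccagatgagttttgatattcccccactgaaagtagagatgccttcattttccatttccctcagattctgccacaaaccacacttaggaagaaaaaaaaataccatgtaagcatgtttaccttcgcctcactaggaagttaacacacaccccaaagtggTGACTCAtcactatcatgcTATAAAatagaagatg
Timp1, chrX:20869916-20870165, plus strand: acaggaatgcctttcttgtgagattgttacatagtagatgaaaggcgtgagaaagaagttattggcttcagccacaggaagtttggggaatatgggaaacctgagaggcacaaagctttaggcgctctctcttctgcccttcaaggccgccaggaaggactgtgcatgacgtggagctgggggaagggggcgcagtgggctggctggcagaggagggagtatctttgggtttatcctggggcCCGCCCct

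Mmp13 held the AP-1 match, whose first base lies 35 bases before the start, together with a TATA match 16 bases before it. No AP-1 match was found in the windows of the other 5 genes. Timp3 and Timp1 each held 1 GC box, 15 and 8 bases before the start. Of the windows not printed, Timp2 held 1 GC box, 37 bases before the start, and Mmp14 held 2, 19 and 13 bases before it. Adamts1 held 3 GC boxes, 147, 76 and 25 bases before the start, and a TATA match 32 bases before it. Of 32851 promoter windows of the same length, 6.75% held the AP-1 letters, 12.4% the TATA letters and 32.7% the GC box letters. These matches describe the sequence only.

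Library totals ran from 55655727 to 87289945 estimated reads. The first principal component of all tested genes took 39.8% of the variance, with replicates 17, 18 and 23 at its ends. Log2 changes after 2 weeks fell with transcript length across genes (Spearman's rho -0.42 over 14731 genes, a description only). From the 2-week to the 5-week course they rose with it (rho 0.47), and after 5 weeks against TAA rho was 0.05. The 10 genes span transcripts of 888 to 6311 bases. Levels below are CPM, counts scaled to library size with TMM, a correction for library composition, and changes are log2 differences from TAA with their standard error (SE). A gene was called changed at an adjusted p under 0.05 by edgeR (quasi-likelihood test, Benjamini-Hochberg adjustment across the 14731 genes). Both courses share the same 3 TAA libraries.

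Levels between genes can be compared only per transcript length. On the deposited FPKM scale (fragments per kilobase of transcript and library depth), the collagenase activator Mmp14 was the highest in TAA at 30.3 ± 5.11 (SD, n = 3), followed by Mmp19 at 21.2 ± 1.64, and these 2 did not overlap. Timp1 came next at 14.7 ± 7.70 and overlapped Mmp19 above it and Mmp2 (11.3 ± 2.16) below it. Timp2 (8.06 ± 0.40) and Timp3 (7.99 ± 1.14) could not be ordered. Adamts1 (2.18 ± 0.47), Mmp9 (1.15 ± 1.02) and Mmp13 (0.804 ± 0.069) were low, and Adamts4 had the lowest mean at 0.491 ± 0.140. The place of Mmp9 rested on replicate 12 (2.33 FPKM), since replicates 13 and 14 (0.547 and 0.575) lay just below Adamts4 in the same libraries (0.551 and 0.592). After 5 weeks of rhCYGB Mmp19 stood at 17.8 FPKM and Mmp14 at 14.3, while Timp1 stood at 2.44, below Timp3 (5.50) and Timp2 (4.71).

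**Figure D1:**
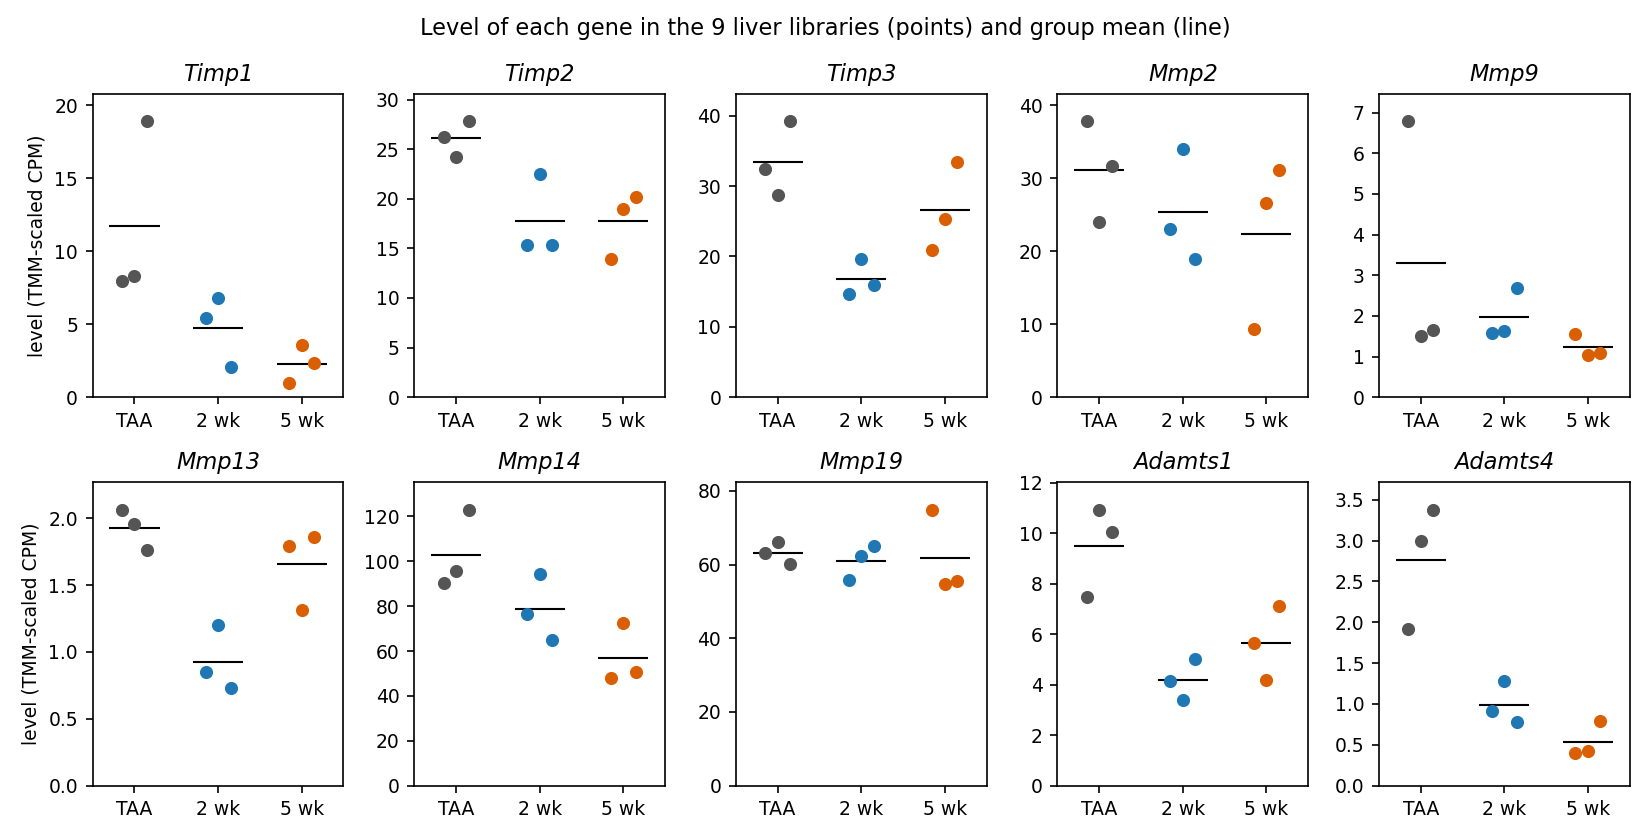
Each panel plots 1 gene, with the level in TMM-scaled CPM on a linear axis from 0 and the 3 groups across (TAA, 2 and 5 weeks of rhCYGB). Points are libraries and lines are group means (n = 3). Timp3, Mmp13 and Adamts1 have their lowest mean at 2 weeks, and Timp1, Mmp2, Mmp9, Mmp14 and Adamts4 at 5 weeks. Both treated means of Timp2 lie at 17.7 CPM, and the 3 means of Mmp19 lie between 61.0 and 63.2 CPM.

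Timp1 (gene ID 21857, mm10 chromosome X, 20870166 to 20874737) encodes the secreted inhibitor most often followed as a marker of liver fibrosis. The TAA libraries held 7.98, 8.27 and 18.9 CPM, the 2-week libraries 5.43, 6.79 and 2.08, and the 5-week libraries 1.00, 3.56 and 2.31. Every rhCYGB library lay below every TAA library, and TAA replicate 14 stood well above the other TAA libraries. The log2 change was -1.29 ± 0.54 after 2 weeks (edgeR adjusted p = 0.186) and -0.77 without replicate 14. It was -2.36 ± 0.56 after 5 weeks (adjusted p = 0.0696), a mean of 2.29 against 11.7 CPM. Neither was called by edgeR. DESeq2 called the 5-week change (adjusted p = 0.000284), as did edgeR with the length trend removed (adjusted p = 0.0282). In all, 4 of 17 alternatives called it. With single libraries left out, 0 of 9 edgeR fits did, at log2 changes of -2.82 to -1.83, the latter without replicate 14.

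Timp1 reads were split by the authors over 3 transcript variants. Variant 2 took between 61.6% and 67.6% of them in the TAA libraries, between 44.7% and 67.4% at 2 weeks, and between 47.3% and 79.6% at 5 weeks. Variant 3 had reads only in replicates 14 (13 reads) and 17 (11 reads), and the rest was variant 1. The ranges overlap in all groups. The gene lies inside Syn1 on the opposite strand without sharing exon bases, and Syn1 had 24 to 92 reads per library.

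Timp2 (gene ID 21858, chromosome 11, 118301061 to 118355411) encodes an inhibitor that also bridges pro-MMP2 to MMP14 at the cell surface. It had 26.2, 24.3 and 27.8 CPM in TAA, 15.4, 22.5 and 15.4 after 2 weeks, and 13.9, 19.01 and 20.2 after 5 weeks. All 6 treated libraries lay below the TAA libraries, which spread little. The log2 change was -0.56 ± 0.19 in both courses (edgeR adjusted p = 0.124 and 0.155) and -0.56 ± 0.16 over all 6 treated libraries (adjusted p = 0.0990), so it was not called.

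Timp3 (gene ID 21859, chromosome 10, 86300412 to 86349505) encodes the TIMP that is held in the matrix. Its TAA libraries had 32.4, 28.8 and 39.2 CPM, the 2-week libraries 14.7, 19.7 and 16.01, and the 5-week libraries 20.9, 25.4 and 33.5. Timp3 fell by 0.99 ± 0.20 on the log2 scale after 2 weeks (edgeR adjusted p = 0.0346), with no overlap between the groups. After 5 weeks the groups overlapped and the log2 change was -0.33 ± 0.20 (adjusted p = 0.395), and it was -0.20 without replicate 14 or 23 and -0.54 without 28. Between the courses, the 5-week libraries were all above the 2-week libraries (log2 difference 0.66 ± 0.20, edgeR adjusted p = 0.170, and 0.0411 with DESeq2).

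The 2-week call of Timp3 was lost by edgeR without replicate 12 (adjusted p = 0.0860), 13 (0.117), 14 (0.109), 17 (0.156), 18 (0.0677) or 19 (0.0633), and with the length trend removed (0.0774), while the log2 change stayed between -1.13 and -0.87 when single libraries were left out. Over all tested genes, the 2-week fits without 12, 13, 14, 17 or 18 called 31, 1, 2, 5 and 3, against 488 with all libraries. Timp3 lies inside Syn3 on the opposite strand and shares 1733 exon bases with it. Strand use in the counting is not given in the sources used here. Syn3 had 31 to 79 reads per library, against 709 to 2856 for Timp3.

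The gelatinases cleave denatured collagen and basement membrane collagen. Mmp2 (gene ID 17390, chromosome 8, 92827297 to 92853421), made by stellate cells and fibroblasts, had 37.8, 24.0 and 31.6 CPM in TAA, 23.02, 34.0 and 18.9 after 2 weeks, and 9.32, 26.6 and 31.2 after 5 weeks. All groups overlapped, and replicate 23 alone lay far below the others. The log2 changes were -0.30 ± 0.39 (edgeR adjusted p = 0.667) and -0.48 ± 0.39 (adjusted p = 0.550). Without replicate 23 the 5-week change was -0.13 and without replicate 28 it was -0.81. The 2-week change was -0.15 without replicate 12, -0.48 without 13, -0.57 without 18 and -0.13 without 19.

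Mmp9 (gene ID 17395, chromosome 2, 164948219 to 164955850) is stored by neutrophils and also made by macrophages. It had 6.79, 1.498 and 1.65 CPM in TAA, 1.59, 1.63 and 2.68 after 2 weeks, and 1.54, 1.04 and 1.08 after 5 weeks. TAA replicate 12 carried most of the group mean, and replicate 19 was the highest treated library. The log2 change after 2 weeks was -0.75 ± 0.54 (edgeR adjusted p = 0.418) and 0.31 without replicate 12. After 5 weeks it was -1.43 ± 0.55 (adjusted p = 0.200) and -0.36 without replicate 12.

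Neutrophil markers and Mmp9 were both highest in replicate 12 and next highest in replicate 19, and did not follow each other elsewhere. Replicate 17 had the next highest marker sum with Mmp9 at 1.59 CPM, and replicate 27 had 20.1 CPM of markers with the lowest Mmp9 (1.04). The 6 neutrophil genes summed to 65.8, 15.4 and 19.7 CPM in TAA, 32.7, 17.98 and 46.1 after 2 weeks and 15.1, 20.1 and 14.4 after 5 weeks, and their part in the Mmp9 values was not tested. The neutrophil gene Ly6g was at 0 in 7 of the 9 libraries, with 9 reads in replicate 12 and 3 in replicate 28. By the nearest profile over the 9 libraries among 12413 genes (the smallest root mean square difference of centred log2 CPM), the 2 genes most like Mmp9 were Csf3r (0.24) and Cxcr2 (0.25), receptors for a granulocyte growth factor and for neutrophil-attracting chemokines. Both are among the 6 summed neutrophil genes. Csf3r stood at 19.1 CPM in replicate 12 and 7.67 in replicate 19, against 4.46 to 5.85 in the other 7.

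**Figure D2:**
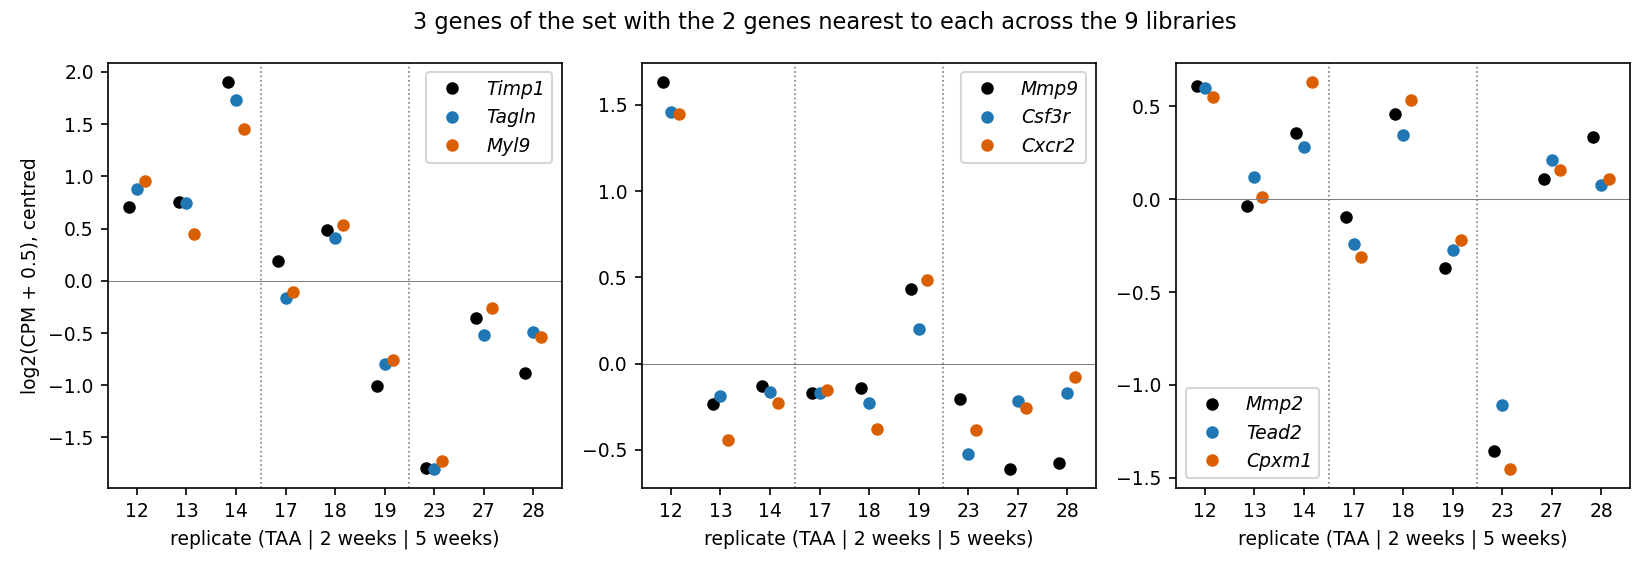
Each panel plots log2(CPM + 0.5), centred on the mean of the 9 libraries, by replicate for 1 gene of the set and the 2 genes nearest to it. Dotted lines separate TAA, 2-week and 5-week libraries; Mmp9, Csf3r and Cxcr2 all peak in replicate 12 and are next highest in replicate 19, Timp1 with Tagln and Myl9 peaks in replicate 14, and Mmp2 with Tead2 and Cpxm1 is lowest in replicate 23.

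Mmp13 (gene ID 17386, chromosome 9, 7272514 to 7283333) is the main interstitial collagenase of rodents, and its AP-1 and TATA letters are printed above. It had 2.06, 1.95 and 1.76 CPM in TAA, 0.847, 1.204 and 0.730 after 2 weeks, and 1.79, 1.31 and 1.86 after 5 weeks. The 2-week libraries lay below all other libraries, and the 5-week libraries overlapped TAA. The log2 change was -1.04 ± 0.26 after 2 weeks (edgeR adjusted p = 0.0582, and 0.00739 with DESeq2) and -0.22 ± 0.26 after 5 weeks (adjusted p = 0.697), the latter -0.076 without replicate 27. The difference between the courses was 0.83 ± 0.26 (adjusted p = 0.175).

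Mmp14 (gene ID 17387, chromosome 14, 54431598 to 54442456) encodes a membrane-bound collagenase that activates pro-MMP2. It had 90.1, 95.5 and 123 CPM in TAA, 76.6, 94.2 and 64.8 after 2 weeks, and 47.9, 72.6 and 50.9 after 5 weeks. The 5-week libraries all lay below TAA, whereas 2-week replicate 18 overlapped it. The log2 change was -0.39 ± 0.20 after 2 weeks (edgeR adjusted p = 0.275) and -0.85 ± 0.21 after 5 weeks (adjusted p = 0.0723). Without TAA replicate 14 the 2-week change was -0.24. DESeq2 called the 5-week change (adjusted p = 0.00488).

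Mmp19 (gene ID 58223, chromosome 10, 128790910 to 128800827) encodes a basement membrane protease. It had 63.2, 66.2 and 60.2 CPM in TAA, 55.7, 62.4 and 65.0 after 2 weeks, and 74.9, 54.9 and 55.5 after 5 weeks, with the groups overlapping throughout. The log2 change was -0.05 ± 0.14 after 2 weeks and -0.03 ± 0.14 after 5 weeks. Its 95% intervals were -0.33 to 0.23 and -0.31 to 0.25, by a normal approximation that is too narrow for so few libraries. The sign turned after 2 weeks with the length trend removed, and in both courses when certain single libraries were left out. Mmp19 shares 789 exon bases with Tmem198b on the opposite strand, which had 347 to 630 reads.

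The 2 Mmp19 transcript variants varied more than their sum. Variant 2 took 17.5%, 55.3% and 71.3% of the reads in TAA, 51.1%, 25.8% and 43.2% after 2 weeks, and 72.2%, 43.3% and 57.8% after 5 weeks. The TAA libraries alone span nearly the whole range, so the shares do not separate the groups.

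**Figure D3:**
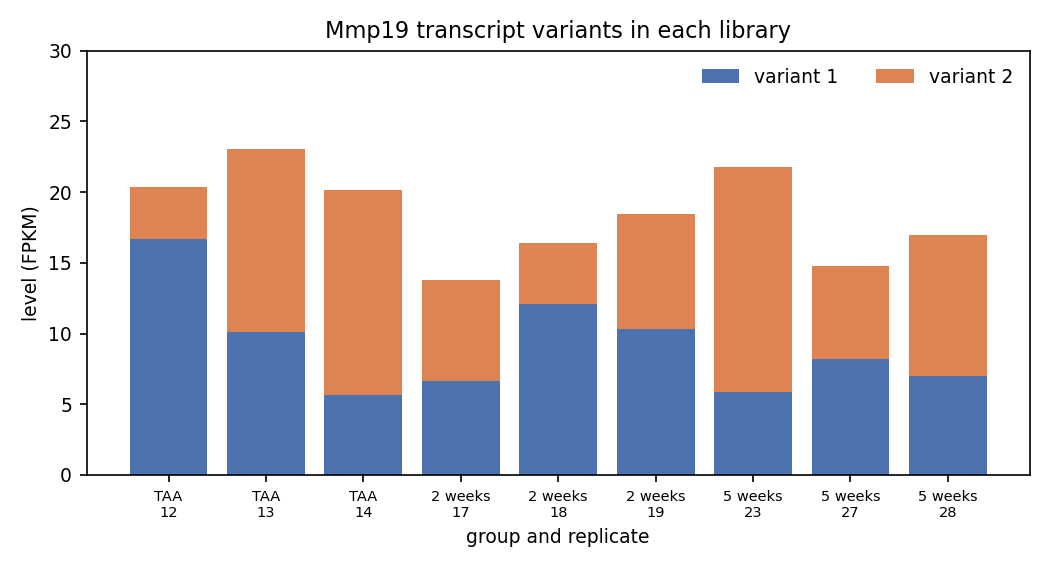
Stacked bars give the deposited FPKM of the 2 Mmp19 transcript variants in each of the 9 libraries, labelled by group and replicate. Variant 2 takes 17.5% of the reads in TAA replicate 12 and 72.2% in 5-week replicate 23, and its share does not follow the groups.

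Adamts1 (gene ID 11504, chromosome 16, 85793828 to 85803113), a versican- and aggrecan-cleaving protease, had 7.48, 10.9 and 10.0 CPM in TAA, 4.13, 3.38 and 5.00 after 2 weeks, and 5.65, 4.19 and 7.13 after 5 weeks. All 6 treated libraries lay below TAA, with replicate 28 close to TAA replicate 12. Adamts1 fell by 1.19 ± 0.24 on the log2 scale after 2 weeks (edgeR adjusted p = 0.0367). After 5 weeks the log2 change was -0.74 ± 0.24 (adjusted p = 0.141). The 2-week call was lost without replicate 12 (adjusted p = 0.0744), 13 (0.152), 14 (0.109), 17 (0.151), 18 (0.104) or 28 (0.0510), at log2 changes of -1.34 to -1.05 over all single libraries left out. Over all tested genes, the fits without 12, 13, 14, 17 or 18 made few calls, as given for Timp3. The 2-week call of Adamts1 was kept by edgeR with the length trend removed (adjusted p = 0.0374).

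Adamts4 (gene ID 240913, chromosome 1, 171250129 to 171262267), another aggrecanase, had 1.92, 2.997 and 3.38 CPM in TAA, 0.909, 1.28 and 0.785 after 2 weeks, and 0.401, 0.425 and 0.792 after 5 weeks. These rest on 118 to 246, 43 to 101 and 22 to 52 reads. No treated library reached the lowest TAA library. Adamts4 fell by 2.35 ± 0.36 on the log2 scale after 5 weeks (edgeR adjusted p = 0.0361), 5.09-fold lower. After 2 weeks its log2 change was -1.47 ± 0.35 (adjusted p = 0.0513, and 0.00220 with DESeq2). Over all 6 treated libraries Adamts4 fell by 1.85 ± 0.35 (adjusted p = 0.0333).

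The 5-week call of Adamts4 was lost by edgeR without replicate 12 (adjusted p = 0.0589), 13 (0.126), 14 (0.165), 17 (0.0556), 18 (0.0614), 19 (0.0512), 23 (0.0727) or 28 (0.0775), and in a fit of only the groups compared (0.0821), with log2 changes of -2.74 to -2.17 over all single libraries left out. The call over all treated libraries was lost without replicate 12 (adjusted p = 0.0796), 13 (0.146), 14 (0.153), 17 (0.0539), 19 (0.0689), 27 (0.0702) or 28 (0.052). Over all tested genes, 0 were called after 5 weeks in the fits without 13, 14, 17, 18, 19 or 23, against 190 with all libraries. Strand use in the counting is not given in the sources used here. Reads from genes that overlap Adamts4 could therefore not be separated from its own.

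**Figure D4:**
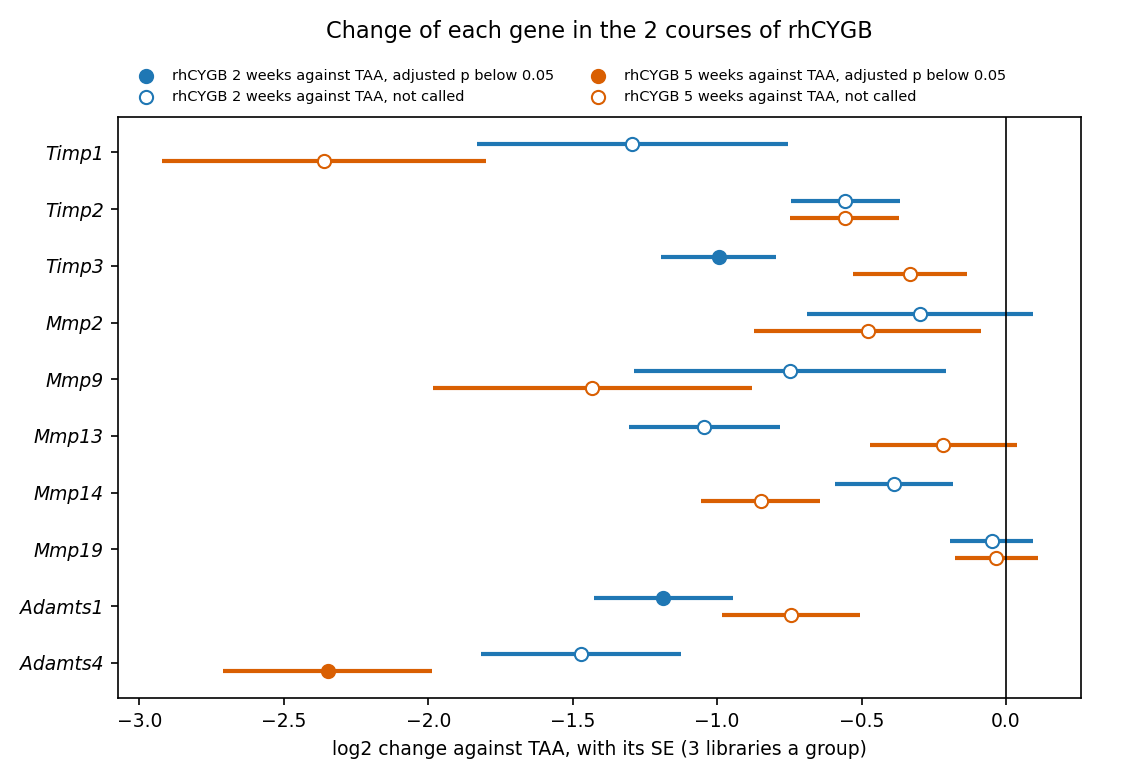
Log2 changes against TAA (horizontal axis, bars are SE, 3 libraries a group) are plotted for the 10 genes after 2 weeks (blue) and 5 weeks (orange) of rhCYGB. Filled points, Timp3 and Adamts1 at 2 weeks and Adamts4 at 5 weeks, have an edgeR adjusted p below 0.05, and every estimate lies left of 0, with Mmp19 nearest to it at -0.05 and -0.03.

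Counted over the set, 2 of 10 genes were called lower after 2 weeks, against 1.34% of all tested genes called lower and 1.98% called higher. After 5 weeks 1 of 10 was called lower, against 0.604% lower and 0.686% higher over all genes. For any rhCYGB 1 of 10 was called lower, against 1.13%. No gene of the set was called higher. The libraries of 6 genes lay wholly below TAA after 2 weeks (16.3% of all genes did), of 5 after 5 weeks (13.4%) and of 4 for the 6 treated libraries together (6.73%). The median log2 change of the 10 was -0.87, -0.65 and -0.61 in these comparisons, beside -0.03, 0.01 and 0.01 over all tested genes. The 10 genes were chosen with earlier results known, so the counts describe them and support nothing further.

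Between the courses, edgeR called 0 of the 10 genes, 4 had an unadjusted p under 0.05 (Timp3, Mmp13, Mmp14 and Adamts4), and DESeq2 called Timp3. Over all 14731 tested genes 0.0204% were called in either direction, and 3421 had an unadjusted p under 0.05. Log2 differences between the courses rose with transcript length across genes (Spearman's rho 0.47, a description only). Timp3 and Mmp13 were higher in every 5-week than in every 2-week library, as were 10.9% of all genes. Mmp9 was lower in every 5-week library, as were 10.2%. The difference was -0.46 ± 0.20 for Mmp14 (adjusted p = 0.214), -0.88 ± 0.36 for Adamts4 (adjusted p = 0.1995) and -1.07 ± 0.55 for Timp1 (adjusted p = 0.255). The set therefore holds estimates on both sides of 0 here, and the different calls of the 2 courses are not shown to differ.

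The balance of inhibitor to protease transcripts was computed per length from the FPKM of each library, with no test. The summed FPKM of Timp1, Timp2 and Timp3 divided by that of the 5 Mmp genes was 0.402, 0.410 and 0.603 in TAA, 0.298, 0.326 and 0.228 after 2 weeks, and 0.239, 0.326 and 0.372 after 5 weeks. The treated libraries all lay below TAA, where Mmp14 (30.3 FPKM) and Mmp19 (21.2 FPKM) were the largest parts of the Mmp sum. On the FPKM scale, which lacks the TMM correction, both sums were lower with rhCYGB. The Timp sum averaged 30.8 ± 9.21 FPKM in TAA, 12.2 ± 3.40 after 2 weeks and 12.6 ± 3.32 after 5 weeks. The Mmp sum averaged 64.7 ± 3.45, 42.7 ± 5.97 and 40.2 ± 2.06 (SD, n = 3). The size of such falls depends on the scale. Mmp19 averaged 21.2, 16.2 and 17.8 FPKM in the same order, but 63.2, 61.0 and 61.7 CPM with TMM. Since Timp1 is much shorter than the other genes, 2-week ratios with Timp1 move with the length trend given above.

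The make-up of the inhibitor pool also differed. Timp1 made up 38.8%, 42.00% and 57.0% of the Timp FPKM in TAA, 45.3%, 42.3% and 23.3% after 2 weeks, and 11.7%, 27.2% and 16.95% after 5 weeks. The 5-week libraries lay below TAA and the 2-week libraries overlapped it. Timp1 over Mmp14, the most abundant protease of the set in TAA, averaged 0.469 ± 0.164 in TAA, 0.249 ± 0.0973 after 2 weeks and 0.164 ± 0.0660 after 5 weeks. Timp3 over Adamts4, the inhibitor and one of its targets, was 22.8, 12.99 and 15.7 in TAA, 22.1, 20.8 and 27.8 after 2 weeks, and 70.3, 81.9 and 57.2 after 5 weeks. Mmp2 over Timp2 averaged 1.402 ± 0.272, 1.67 ± 0.187 and 1.42 ± 0.553 in the same order, with overlap.

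**Figure D5:**
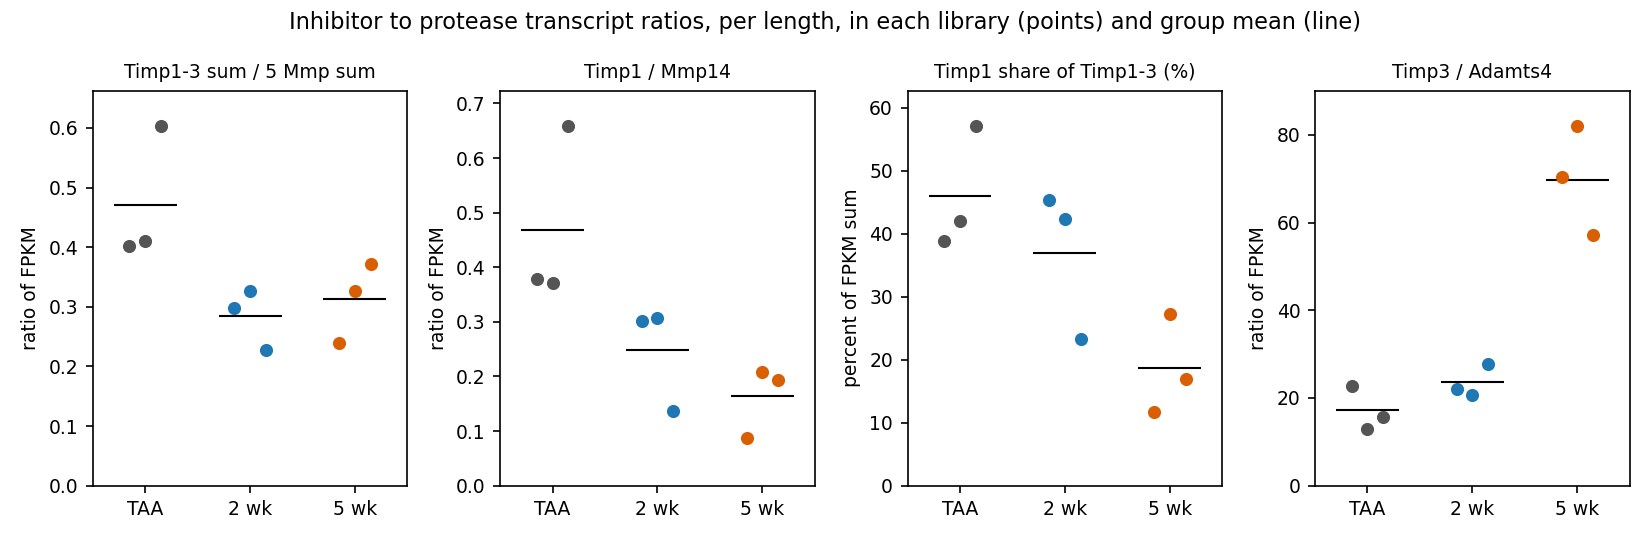
The 4 panels plot, per library (points) and as group means (lines, n = 3), ratios of FPKM: summed Timp over summed Mmp genes, Timp1 over Mmp14, the Timp1 share of the Timp sum in percent, and Timp3 over Adamts4. All 6 treated libraries lie below TAA in the first panel. The 5-week libraries reach 57.2 to 81.9 for Timp3 over Adamts4, on 22 to 52 Adamts4 reads, against 12.99 to 22.8 in TAA.

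Among 59 other metalloproteinases, activators and inhibitors, 45 had enough reads to test. Genes of plasminogen activators, whose product plasmin activates several metalloproteinases, held 2 of the 4 calls after 2 weeks and the single call after 5 weeks. Plg, the gene of plasminogen itself, was not called. It had 1745, 1629 and 1461 CPM in TAA, 1765, 1682 and 1744 after 2 weeks, and 1915, 1876 and 1653 after 5 weeks. Of the 6 listed activator genes, 2 had log2 changes above 0 after 2 weeks and 3 after 5 weeks. Plat, encoding tissue plasminogen activator, had 20.5, 21.8 and 19.4 CPM in TAA, 5.54, 9.72 and 7.98 after 2 weeks and 4.35, 8.33 and 7.92 after 5 weeks. It fell by 1.41 ± 0.26 and 1.58 ± 0.27 on the log2 scale (edgeR adjusted p = 0.0295 and 0.0379).

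After 2 weeks 4 of the 45 were called lower and 0 higher: Plat, the urokinase gene Plau (fell by 1.76 ± 0.25, edgeR adjusted p = 0.0235), the macrophage elastase Mmp12 (fell by 1.36 ± 0.16, adjusted p = 0.0153) and Adamts12 (fell by 1.73 ± 0.35, adjusted p = 0.0367). After 5 weeks 1 was called lower and 0 higher, Plat. Next by p came Mmp24 at -1.54 ± 0.34 (adjusted p = 0.0582), Plau at -1.04 ± 0.24 (adjusted p = 0.0669) and Adamts12 at -1.35 ± 0.35 (adjusted p = 0.0836). Over all treated libraries 5 were called lower and 0 higher, which added Mmp24 (fell by 1.45 ± 0.27, adjusted p = 0.0333) and the urokinase receptor gene Plaur (fell by 1.47 ± 0.32, adjusted p = 0.0462) to Plat, Plau and Adamts12. Of all tested genes, 1.34%, 0.604% and 1.13% were called lower in these comparisons. The median log2 changes of the 45 were -0.33, -0.46 and -0.40 in the same order. When single libraries were left out, Plat was called in 3 of 9 fits after 2 weeks and 1 of 9 after 5 weeks, Plau after 2 weeks in 4, Mmp12 in 5 and Adamts12 in 2. Over all treated libraries Plat was called in 6 of 9 fits, Adamts12 in 4, Mmp24 and Plau in 3 each, and Plaur in 2. Calls over all tested genes also fell in most of these fits, as given in the last section.

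No cathepsin (5 tested) or ADAM gene (7 tested) was called in either course by edgeR, although 1 and 4 had an unadjusted p under 0.05 after 2 weeks and 0 and 4 after 5 weeks. Of all 14731 tested genes, 3453 and 2829 had such a p after 2 and 5 weeks. Timp4 had 0 reads in all 9 libraries. Between the courses 0 of the 45 were called by edgeR and 7 had an unadjusted p under 0.05, as did 3421 of all 14731. The length trend between the courses, given above, applies to these differences too. The lowest p belonged to Mmp12 (log2 difference 0.74 ± 0.16, adjusted p = 0.139), Adam9 (0.97 ± 0.28, adjusted p = 0.168), Plau (0.72 ± 0.25, adjusted p = 0.180) and the membrane protease gene Mmp15 (0.49 ± 0.18, adjusted p = 0.180), all higher after 5 than after 2 weeks.

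Genes of matrix proteins that these enzymes cleave were read beside them. Of 12 such genes, 4 were called lower after 2 weeks (Col1a2, Col4a1, Thbs1 and Lum) and 4 after 5 weeks (Col1a2, Col4a1, Vcan and Thbs1). Over all treated libraries 8 were called lower, and none was called higher in these comparisons. Of all tested genes, 1.34%, 0.604% and 1.13% were called lower in the same order. The median log2 changes of the 12 were -1.10, -1.32 and -1.16. All 5-week calls were lost without replicate 13, 14, 17, 18, 19 or 23, where 0 of all tested genes were called. Fn1, the fibronectin gene, had log2 changes of -0.33 ± 0.15 and 0.21 ± 0.15 in the 2 courses (edgeR adjusted p = 0.223 and 0.487). Vcan, the versican gene, a substrate of ADAMTS1 and ADAMTS4, fell by 1.56 ± 0.31 after 5 weeks (edgeR adjusted p = 0.0488). This rests on few reads, 32 to 44 per library after 5 weeks against 104 to 165 in TAA. Timp1 over Col1a1, in FPKM, averaged 0.228 ± 0.105 in TAA, 0.374 ± 0.181 after 2 weeks and 0.232 ± 0.0736 after 5 weeks, with overlapping groups.

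Markers of cells that make these genes were read in the same libraries. The 10 stellate cell and myofibroblast markers summed to between 427 and 550 CPM in TAA, 269 and 337 at 2 weeks, and 219 and 385 at 5 weeks, without overlap of TAA and treated libraries. Dcn, 34.1% to 59.2% of this sum by library, and Lum are also among the substrates and Des among the muscle markers. Without these 3 the sums were 179 to 262, 82.7 to 125 and 60.5 to 112 CPM, again without overlap with TAA. Of the 10, 3, 2 and 4 were called lower after 2 weeks, after 5 weeks and over all treated libraries. The shares of all tested genes called lower were 1.34%, 0.604% and 1.13%. Acta2 fell by 2.15 ± 0.42 and 2.93 ± 0.43 in the 2 courses (edgeR adjusted p = 0.0327 and 0.0362), whereas the stellate marker Dcn had log2 changes of -0.24 ± 0.20 and -0.13 ± 0.20 (adjusted p = 0.481 and 0.773). The 9 macrophage markers summed to 740 to 966, 530 to 697 and 350 to 629 CPM. Spp1, which bile duct cells also express, took 29.1% to 53.6% of these sums. Without it they were 439 to 531, 291 to 449 and 248 to 311 CPM, and the 2-week libraries overlapped TAA. Of the 9 markers, 1 was called lower after 2 weeks and 0 after 5 weeks by edgeR (3 and 5 with an unadjusted p under 0.05). Over all 14731 tested genes 3453 and 2829 had such a p. In whole liver, fewer cells of a type and less RNA per cell cannot be told apart, and the part of cell numbers in the protease and inhibitor levels was not tested.

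Other cell types were followed in the same way. Sinusoidal endothelial markers summed to between 99.2 and 109 CPM in TAA, 98.5 and 121 at 2 weeks, and 86.0 and 107 at 5 weeks. The range was, in the same order, for Kupffer cell markers 212 to 328, 266 to 450 and 251 to 285, and for hepatocyte markers 98642 to 112745, 108138 to 148507 and 107792 to 148324, all overlapping. Cholangiocyte markers stood at 110 CPM in replicate 23 against 271 to 536 in the other libraries, and Spp1 took 86.3% to 93.6% of these sums. Without Spp1 the other 5 markers stood at 8.39 CPM in replicate 23 and at 25.7 to 59.9 in the others. Replicate 23 also had the lowest Timp1, Timp2, Mmp2, Mmp14 and Adamts4, but the highest Mmp19. Its stellate (219 CPM) and macrophage (350 CPM) sums were the lowest too. Mesothelial markers were highest in replicate 14 (8.12 CPM against 4.37 and 4.79 in the other TAA libraries). Replicate 14 also held the highest Timp1, Timp2, Timp3, Mmp14 and Adamts4 of all libraries, but the lowest Mmp13 and Mmp19 within TAA. The stellate (550 CPM) and cholangiocyte (536 CPM) sums were highest there too. The macrophage sum (966 CPM) was highest there only with Spp1 counted. Muscle markers of other tissue without Des summed to no more than 2.20 CPM in any library and to 1.26 in replicate 14, within the range of the others.

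The nearest profiles over the 9 libraries were read in the same way for the other genes, as a description of libraries that share their depth and composition. Timp1 lay nearest to Tagln (0.22 root mean square log2 difference) and Myl9 (0.27), which encode smooth muscle contractile proteins, and Tagln had 74.8 CPM in replicate 14 and 6.03 in replicate 23. Mmp2 lay nearest to Tead2 (0.15) and Cpxm1 (0.16). The fifth nearest was mouse Cygb itself (0.17), which was singled out after its value was seen. Timp2 lay nearest to Ptgfrn (0.080) and Eme1 (0.083), Timp3 to Plxna4 (0.16) and Spire1 (0.17), and Mmp13 to Unc5b (0.10) and Skida1 (0.11). Mmp14 lay nearest to Tubb5 (0.12) and Snx20 (0.14), Mmp19 to Tmem81 (0.059) and Zdhhc18 (0.067), Adamts1 to Kbtbd8 (0.15) and Kitl (0.15), and Adamts4 to 5730559C18Rik (0.17) and Fbn2 (0.23), the gene of an elastic fibre protein.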

How the data were processed

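Poly(A)-selected, strand-marked RNA libraries of mouse liver (9 in all) were sequenced from both ends, per the labels' protocols. Per the submitters' processing notes, the build was mm10, and the tools include HISAT2 2.1.0 and StringTie 1.3.4d. The authors deposited estimated counts and FPKM per gene and transcript, per the file headers; transcript lengths come from the same tables. How the counts were made from StringTie output is not given in the sources used here. Genes were kept by filterByExpr (minimum count 10, minimum total 15) and tested with edgeR 4.0.16 (TMM, quasi-likelihood F test) in R 4.3.3, in 1 fit of 9 libraries and 3 groups with 6 residual degrees of freedom; any rhCYGB was tested in a second fit with 2 groups. The SE was taken as the change over the root of F. The biological coefficient of variation was 24.9%. The test was tried on simulated data first. The 10 genes and all lists were chosen with earlier results of these data known. Named besides them were the called genes of the 59-gene list (or the lowest p up to 4) and the 2 nearest profiles of each gene with a mean of at least 1 CPM. Alternatives were DESeq2 1.42.0, other scalings, no filter, limma 3.58.1 on log2(FPKM + 1), only the groups compared, removal of the length trend, and leaving out libraries. Of the alternatives, leaving out replicates 17, 18 and 23 together was added after seeing the data. Amino acid sequences are not shown, and some items are not reported here. Gene overlaps come from GENCODE M21 (GRCm38).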

Additional observations from a re-analysis of the deposited data

Results flagged for a closer look

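Mmp9 in 2-week replicate 19, at 2.68 CPM, lay apart from the other 5 rhCYGB libraries (1.04 to 1.63 CPM). Its gap to the nearest library was 0.640 of the range of the 6, above Dixon's 95% critical value for 6 samples. Chance alone flags a small share of such groups, and 10 genes were looked at. The same library held 46.1 CPM of summed neutrophil markers, against 14.4 to 32.7 in the other treated libraries.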

How the results depend on the processing

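Directions of the 9 genes other than Mmp19 against TAA were the same under DESeq2, upper quartile scaling, library totals alone, no filter, log2(FPKM + 1), only the groups compared, and removal of the length trend. How many of the 10 were called depended on the setting, and the cause was not tested. After 2 weeks (2 called) it was 4 with DESeq2 and with only the groups compared, 6 with library totals and with FPKM, 1 with the length trend removed, 0 without replicates 17, 18 and 23, and 0 to 4 with single libraries left out. After 5 weeks (1 called) it was 3 with DESeq2 and library totals, 4 with FPKM, 0 with only the groups compared, 2 with the length trend removed, 0 without 17, 18 and 23, and 0 to 2 with single libraries left out. For any rhCYGB (1 called) it was 4 with DESeq2, 5 with library totals and FPKM, 3 with the length trend removed, 2 without 17, 18 and 23, and 0 to 2 with single libraries left out. Between the courses (0 called) it was 1 with DESeq2 and 0 to 0 with single libraries left out. Library totals moved the median of all genes by -0.33, -0.22, -0.27 and 0.11 (2 weeks, 5 weeks, any, between courses), and FPKM by -0.17, -0.14, -0.18 and 0.06, so directions are relative to TMM.

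Over all genes, 197 were called lower and 291 higher after 2 weeks, 179 and 147 with upper quartile scaling, 1612 and 110 with library totals, and 1838 and 145 with FPKM. After 5 weeks the split was 89 and 101, then 45 and 32, 466 and 38, and 932 and 69. For any rhCYGB it was 167 and 128, then 176 and 64, 1105 and 58, and 1558 and 83. With single libraries left out, all genes called after 2 weeks ran from 1 (without 13) to 1095 (without 23). After 5 weeks they ran from 0 (without 13, 14, 17, 18, 19 or 23) to 240 (without 27). For any rhCYGB they ran from 0 (without 12, 13 or 14) to 662 (without 23). Calls lost for a named gene are to be read beside these counts. All genes called with DESeq2 were 1724, 1178, 1220 and 796 in the 4 comparisons, against 488, 190, 295 and 3, and with only the groups compared 1023 after 2 weeks and 1 after 5 weeks.

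Signs turned for values near 0 or resting on 1 library. Mmp19 was 0.055 after 2 weeks and 0.019 for any rhCYGB with the length trend removed, 0.041 after 2 weeks without 17, 18 and 23, and -0.098 to 0.012 (2 weeks) and -0.21 to 0.046 (5 weeks) with single libraries left out. Mmp9 ran from -1.11 to 0.31 (2 weeks) and -1.41 to 0.0100 (any) with single libraries left out, positive without replicate 12. Between the courses Timp2 was 0.0047 with DESeq2, 0.11 with library totals, 0.0022 with no filter, 0.096 with FPKM, 0.0016 with only the groups compared, 0.35 without 17, 18 and 23, and -0.10 to 0.21 with single libraries left out. Mmp19 was -0.025 with upper quartile scaling, -0.074 with the length trend removed, -0.24 without 17, 18 and 23, and -0.15 to 0.10 with single libraries left out. Mmp2 was 0.61 and Timp1 0.49 without 17, 18 and 23, and Mmp2 ran from -0.50 to 0.18 with single libraries left out. No paired analysis was possible because the groups share no replicate number. Low read numbers limit Adamts4, Mmp13 and Mmp9.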
